A study of Mus musculus with 10 samples.

Results

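The matrix around neurons is built from hyaluronan, from chondroitin sulfate proteoglycans that bind it, from link proteins that fasten the proteoglycans to it, and from tenascins that tie the proteoglycans together. The 10 genes described here are the lecticans Acan (aggrecan), Bcan (brevican), Ncan (neurocan) and Vcan (versican), the link protein genes Hapln1, Hapln2 and Hapln4, the tenascins Tnc and Tnr, and Ptprz1, a receptor tyrosine phosphatase whose secreted form is the proteoglycan phosphacan. They were chosen by name, with earlier results of these data known, and are 10 of the 55471 gene identifiers measured. All 10 passed the count minimum that left 17101 genes for testing. In the newborn brain a loose juvenile matrix of neurocan, tenascin-C and the long versican forms is gradually replaced by a mature matrix rich in brevican, aggrecan and tenascin-R. Part of the mature matrix condenses into perineuronal nets around fast-firing neurons and into coats at the nodes of Ranvier. Ncan, Vcan, Tnc and Hapln1 are read here as 4 juvenile genes and Acan, Bcan, Tnr, Hapln2 and Hapln4 as 5 mature genes. Ptprz1, present at both stages, is kept apart. The grouping follows general knowledge and was not tested with these data, and the place of Hapln1 among the juvenile genes is part of it.

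Whole-brain RNA came from 10 wild-type Swiss Webster pups, for which the labels give neonatal day 5. Tissue age was not tested from the markers. Every brain had been injured by hypoxia-ischemia (loss of oxygen and blood flow). In 5 pups, numbers 6 to 10, the injury was followed by allopregnanolone, a steroid made from progesterone that enhances GABA-A receptor currents. The other 5 pups, numbers 1 to 5, had the injury and no treatment, and each pup gave 1 library. No uninjured brain is among the samples used here, so every value describes injured tissue. Estimated counts summed to between 18656836 and 34270723 per library, and treated library 6 was the deepest. Markers of neurons, astrocytes and oligodendrocytes were abundant in every library, whereas all 7 hindbrain and spinal cord markers lay below the count minimum, at sums of 0.172 to 3.43 counts-per-million (CPM) in tissue labelled whole brain. Treated library 6 also stood apart by the sum of its meningeal fibroblast markers, 464 CPM, against 103 to 134 CPM in the other treated libraries and 100.1 to 140.0 CPM in untreated ones. That sum rests mainly on the collagen genes Col1a1 and Col1a2, at 277 and 116 CPM in library 6. The other markers of the list, Col3a1, Dcn and Lum, reached no more than 32.5, 38.3 and 3.77 CPM in any treated library.

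The promoters of genes that passed the test are shown first, because genes of both directions are among them. Of the 10 genes, 9 are in the RefSeq promoter table (build GRCm38.p6), and Hapln4 is named only. The windows end at the base before the RefSeq start, except that of Hapln2, which stops 72 bases short of it, and they hold no base of the annotated gene. They cover chr4:64047016-64047265 for Tnc, chr3:88000357-88000606 for Bcan and chr3:88027584-88027761 for Hapln2, all on the minus strand, and chr6:22875252-22875501 for Ptprz1 on the plus strand. Capitals mark matches, on either strand, to the TATA box letters TATAAA or the GC box letters GGGCGG.
Tnc: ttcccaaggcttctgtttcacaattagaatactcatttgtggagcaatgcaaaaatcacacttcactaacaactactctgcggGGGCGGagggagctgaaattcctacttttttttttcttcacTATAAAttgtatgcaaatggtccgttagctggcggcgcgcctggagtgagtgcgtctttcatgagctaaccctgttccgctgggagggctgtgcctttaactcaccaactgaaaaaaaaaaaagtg
Ptprz1: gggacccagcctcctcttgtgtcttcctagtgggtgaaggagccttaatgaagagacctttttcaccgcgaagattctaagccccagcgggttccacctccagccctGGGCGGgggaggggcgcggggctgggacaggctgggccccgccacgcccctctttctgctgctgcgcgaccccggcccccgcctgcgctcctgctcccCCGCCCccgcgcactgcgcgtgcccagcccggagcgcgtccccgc
Bcan: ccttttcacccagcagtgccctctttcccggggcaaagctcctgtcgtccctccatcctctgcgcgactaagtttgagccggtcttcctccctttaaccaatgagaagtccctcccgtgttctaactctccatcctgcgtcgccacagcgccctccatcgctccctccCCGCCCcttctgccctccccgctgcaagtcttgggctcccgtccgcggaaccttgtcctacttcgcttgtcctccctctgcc
Hapln2: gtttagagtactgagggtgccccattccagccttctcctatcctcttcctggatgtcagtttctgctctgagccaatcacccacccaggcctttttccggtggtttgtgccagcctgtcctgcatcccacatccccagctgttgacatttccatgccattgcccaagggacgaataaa
The Tnc window held 1 TATA box match, a motif found in 12.4% of all 32851 promoter windows of 250 bases, and 1 GC box match, found in 32.7%. Bcan held 1 GC box match and Ptprz1 held 2. The Hapln2 window, cut to 178 bases to stay outside the gene, held neither motif, and windows of that length hold a GC box in 20.7% of promoters. Letters of an NFI half-site (TTGGCA) and of a SOX core (ACAAAG) were searched as well and occurred in none of the 4 windows, while 12.3% and 16.5% of all 250-base windows hold them. Bases G and C made up 71.6% of the Ptprz1 window, 62.0% of the Bcan window, 53.4% of the Hapln2 window and 44.8% of the Tnc window, against a median of 52.4% over all 250-base windows. These matches describe letters and say nothing of which factors act there.

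Of the 10 matrix genes 3 rose with allopregnanolone, namely Bcan, Hapln4 and Hapln2, all mature genes, and 2 fell, the juvenile gene Tnc and Ptprz1. Over all genes tested 6.61% were higher and 4.65% lower (edgeR's quasi-likelihood test, adjusted p under 0.05), 11.3% in all. Because the 10 genes were chosen with earlier results of these data known, the counts are a description and no test of an excess. By list, 3 of 5 mature genes rose and 2 did not pass, and 1 of 4 juvenile genes fell and 3 did not pass. The median log2 fold change was 0.47 over the mature and -0.17 over the juvenile genes, against 0.00 over all genes. With scaling by library totals alone, 783 of all genes were higher and 1451 lower, where TMM scaling gave 1131 and 795, and the same 3 matrix genes rose while Ncan and Vcan joined the 2 that fell. With the 3 untreated libraries of another name prefix (pups 1 to 3) left out, which leaves 2 untreated libraries, no matrix gene passed in edgeR's test, though 5 had an unadjusted p under 0.05. In that analysis 76 genes in all were higher and 23 lower.

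**Figure D1:**
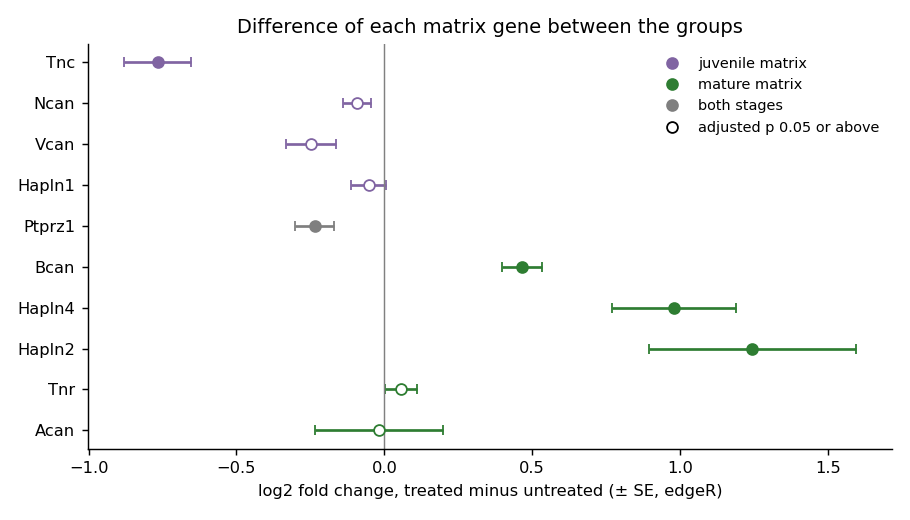
Log2 fold change of each matrix gene, treated minus untreated, on the x axis with its standard error (edgeR, n = 5 libraries a group), purple for juvenile, green for mature genes and grey for Ptprz1. Filled points passed an adjusted p of 0.05: Tnc and Ptprz1 lie left of 0, and Bcan, Hapln4 and Hapln2 lie right of it.

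Among the juvenile genes, Tnc had the clearest difference. Tenascin-C is a large glycoprotein made by radial glia, by immature astrocytes and again after injury. Tnc (ENSMUSG00000028364, chromosome 4, 63959785 to 64047015, GRCm38) stood at 24.0, 17.5, 19.9, 27.8 and 20.9 CPM in treated pups 6 to 10, against 31.5, 42.1, 40.0, 37.9 and 36.3 CPM in untreated pups 1 to 5. Every treated library was below every untreated one, although treated library 9 came close to untreated library 1. Such a gap between the groups was seen for 4 of the 10 matrix genes, 2 with treated libraries above and 2 with them below, against 5.44% and 4.20% of all genes tested, or 9.64% in all. The means were 22.0 ± 3.99 CPM with treatment and 37.6 ± 4.05 CPM without (SD, n = 5 each), a log2 fold change of -0.77 (SE 0.11, adjusted p = 0.00146, edgeR), or 1.70-fold lower. It passed whichever single library was left out (adjusted p = 0.000762 to 0.00543), and was at -0.75 with adjusted p = 0.0529 without untreated pups 1 to 3. As the brains were measured in bulk, fewer cells of a type and less RNA per cell cannot be told apart, here or for the genes that follow. Markers of dividing cells and radial glia, 5 of 6 of which were lower, summed to 71.2 to 80.7 CPM in treated and to 95.4 to 143 CPM in untreated libraries. Markers of immature neurons, all 5 of which were lower, summed to 1037 to 1136 CPM in treated and to 1371 to 1493 CPM in untreated libraries. Those of mature neurons, 3 of 5 of which were higher, summed to 4519 to 5434 CPM in treated and to 3654 to 4309 CPM in untreated libraries. The part of these markers in the results for Tnc and the genes that follow was not tested.

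The other 3 juvenile genes did not pass. Vcan, which encodes versican, a proteoglycan of migration paths and of precursors of oligodendrocytes (ENSMUSG00000021614, chromosome 13, 89655312 to 89742509), was at 41.0, 42.2, 46.3, 55.3 and 42.5 CPM in treated pups 6 to 10, against 60.9, 52.8, 55.3, 49.6 and 51.3 CPM in untreated pups 1 to 5. Treated library 9 alone among the treated lay within the untreated range. Its difference was -0.25 on the log2 scale (SE 0.08, adjusted p = 0.0690 in edgeR's test), and without treated library 9 it was -0.33 with adjusted p = 0.0133. It also passed with DESeq2 (adjusted p = 0.0445) and with library totals alone (-0.31, adjusted p = 0.0374). The counts sum all versican forms, so the long juvenile and the short mature form were not separated.

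Ncan, the most abundant lectican of untreated brains and a ligand of neural adhesion molecules (ENSMUSG00000002341, chromosome 8, 70093085 to 70120873), did not pass. It averaged 550.1 ± 17.2 CPM with treatment and 587 ± 26.3 CPM without (SD, n = 5 each), with a log2 fold change of -0.09 (SE 0.05, adjusted p = 0.225, edgeR). Its ranges overlapped, from 528 to 570.0 CPM in treated and from 552 to 625 CPM in untreated libraries, and it passed only with library totals alone (-0.15, adjusted p = 0.0384). Hapln1, which encodes the cartilage link protein that stabilises lecticans on hyaluronan (ENSMUSG00000021613, chromosome 13, 89539796 to 89611652), ranged from 51.9 to 59.2 CPM in treated and from 53.6 to 63.9 CPM in untreated libraries. Its difference was -0.05 on the log2 scale (SE 0.06, adjusted p = 0.596 by edgeR), with an approximate 95% interval (1.96 SE to either side) of -0.17 to 0.06.

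Ptprz1 encodes a membrane phosphatase of radial glia and of astrocyte and oligodendrocyte precursors, and its soluble form phosphacan binds tenascins and contactin. Ptprz1 (ENSMUSG00000068748, chromosome 6, 22875502 to 23052916) was at 437, 428, 436, 442 and 415 CPM in treated pups 6 to 10, against 465, 446, 539.7, 576 and 516 CPM in untreated pups 1 to 5. The treated libraries lay close together and below every untreated one, with treated library 9 just under untreated library 2. The means were 432 ± 10.8 CPM and 508 ± 53.6 CPM (SD, n = 5 each), 1.18-fold lower with treatment (log2 fold change -0.24, SE 0.07, adjusted p = 0.0360, edgeR). The call was lost on leaving out treated library 7, 8, 9 or 10 (adjusted p = 0.0656, 0.0617, 0.0543 and 0.0794) or untreated library 3, 4 or 5 (adjusted p = 0.0843, 0.0736 and 0.0504), at log2 fold changes of -0.25 to -0.19. Without untreated pups 1 to 3 it was at -0.34 with adjusted p = 0.0636.

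**Figure D2:**
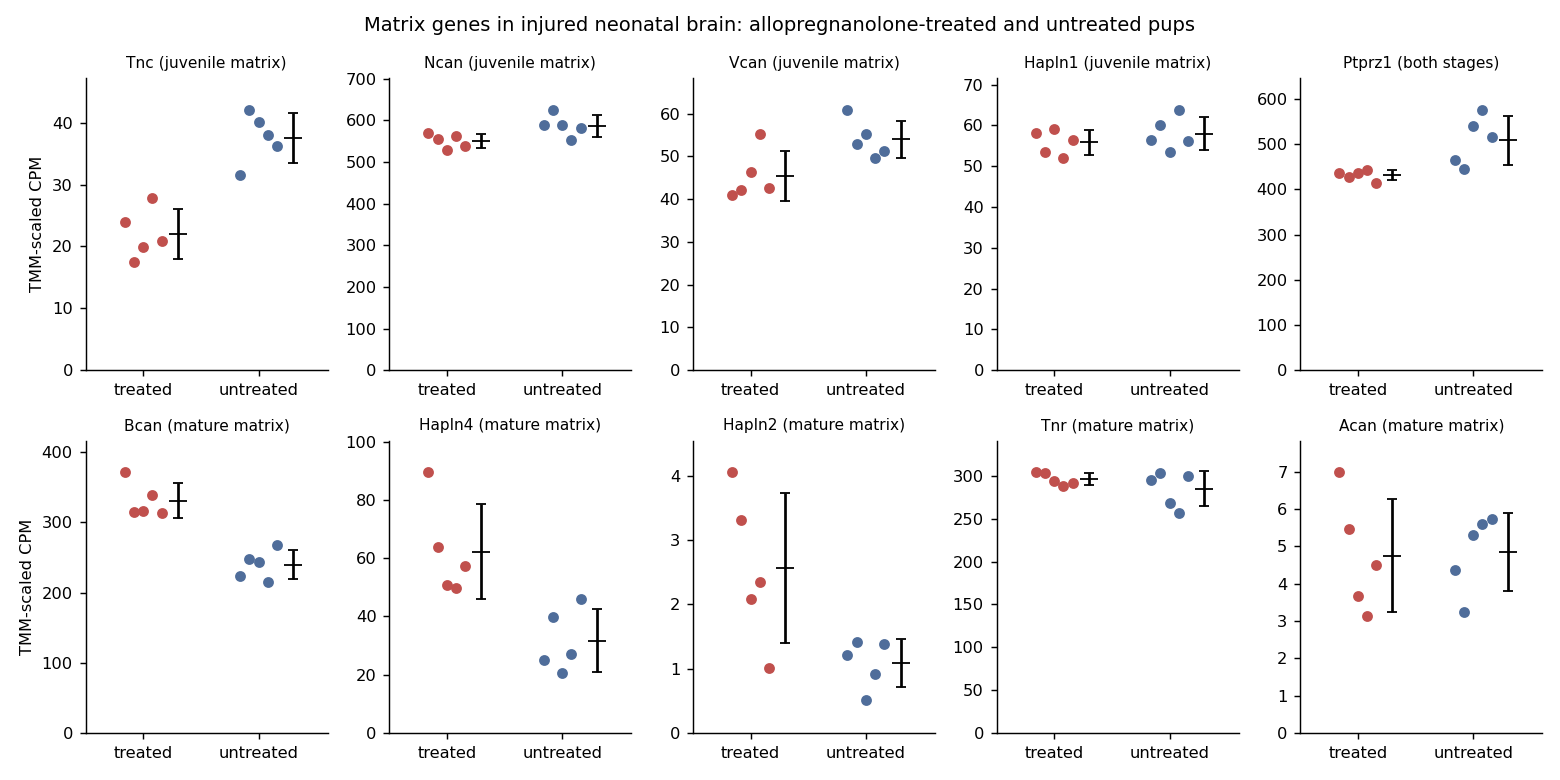
TMM-scaled CPM of each matrix gene in each library (y axis, from 0), treated pups in red left of untreated pups in blue, with mean and SD in black (n = 5 libraries a group). Treated libraries lie wholly above untreated ones for Bcan and Hapln4 and wholly below them for Tnc and Ptprz1, and the other 6 genes overlap.

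Bcan was higher in every treated library than in any untreated one. Brevican is the brain-specific lectican that astrocytes and oligodendrocyte precursors deposit around synapses and in nets. Bcan (ENSMUSG00000004892, chromosome 3, 87987531 to 88000230) was at 371, 315, 317, 339 and 314 CPM in treated pups 6 to 10, against 224, 249, 244, 215 and 267 CPM in untreated pups 1 to 5. The groups did not overlap, the lowest treated library standing well above untreated library 5, the highest of its group. The means were 331 ± 24.7 CPM and 239.9 ± 20.6 CPM (SD, n = 5 each), 1.38-fold higher with treatment (log2 fold change 0.47, SE 0.07, adjusted p = 0.00142, edgeR). It passed whichever single library was left out (adjusted p = 0.000836 to 0.00484) and missed only without untreated pups 1 to 3 (0.45, adjusted p = 0.0767). A list of oligodendrocyte precursor markers, 5 of 6 of which were higher, summed to 867 to 1080 CPM in treated and to 560.2 to 833 CPM in untreated libraries. The 5 were Gpr17, Cspg4 and, known from the whole oligodendrocyte lineage, Olig1, Olig2 and Sox10. Pdgfra, which defines precursors, did not pass, at 78.4 ± 8.09 CPM in treated and 83.1 ± 3.72 CPM in untreated brains (SD, n = 5 each). Astrocyte markers, 2 of 7 higher, summed to 3467 to 3937 CPM and to 2882 to 3569 CPM. The 2 were Aldoc and Slc1a2, the latter at 2158 CPM in treated and 1634 CPM in untreated brains. Gfap and Aqp4 had log2 fold changes of -0.86 and -0.33 and did not pass (adjusted p = 0.0771 and 0.153, edgeR). Aldh1l1, Gja1 and Slc1a3 were at 0.09, 0.17 and 0.14 and did not pass either. The part of the precursor and astrocyte markers in the Bcan result was not tested.

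The same held for Hapln4. Its product, also called Bral2, is a brain link protein that holds brevican in perineuronal nets, known in mouse from the brainstem and cerebellum. Hapln4 (ENSMUSG00000007594, chromosome 8, 70083457 to 70090862) was at 89.5, 63.8, 50.9, 49.7 and 57.3 CPM in treated pups 6 to 10, against 25.0, 39.8, 20.6, 27.0 and 46.1 CPM in untreated pups 1 to 5. No untreated library reached a treated one, but untreated library 5 was close to treated libraries 8 and 9, and treated library 6 was far above the rest. The means were 62.2 ± 16.2 CPM and 31.7 ± 10.8 CPM (SD, n = 5 each), 1.97-fold higher with treatment (log2 fold change 0.98, SE 0.21, adjusted p = 0.0109, edgeR). It passed whichever single library was left out (adjusted p = 0.00320 to 0.0351).

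Hapln2 had the largest fold change of the 10 genes and the lowest counts. Its product, Bral1, is the link protein at nodes of Ranvier, made by oligodendrocytes as axons are myelinated. Hapln2 (ENSMUSG00000004894, chromosome 3, 88021750 to 88027583) was at 4.06, 3.32, 2.09, 2.35 and 1.01 CPM in treated pups 6 to 10, against 1.21, 1.42, 0.515, 0.924 and 1.38 CPM in untreated pups 1 to 5. The highest 4 treated libraries exceeded all untreated ones, while treated library 10 fell within the untreated range. These levels rest on 21 to 136 counts a library in treated and on 13 to 33 counts in untreated pups. The fold was 2.37 (log2 fold change 1.24, SE 0.35, adjusted p = 0.0361, edgeR). The call was lost on leaving out treated library 6, 7 or 9 (adjusted p = 0.0868, 0.0779 and 0.0567) or untreated library 1, 3 or 4 (adjusted p = 0.0629, 0.0816 and 0.0867), with log2 fold changes of 1.00 to 1.28, and in limma-trend (adjusted p = 0.0538 to 0.0738).

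Markers of other cells and regions are given here beside Hapln4 and Hapln2. All 10 markers of myelinating oligodendrocytes rose, summing to 6005 to 8113 CPM in treated and to 2027 to 3905 CPM in untreated libraries. All 5 markers listed for parvalbumin interneurons, the cells that most nets surround, rose as well. Their sums were 498 to 608 CPM in treated and 381 to 456 CPM in untreated libraries. Pvalb itself averaged 19.5 and 8.27 CPM, against 224 and 195 CPM for Gad1 and 174 and 131 CPM for Kcnc1. The sums thus rest mainly on genes other than Pvalb. The 7 midbrain markers, all higher, summed to 102, 78.6, 14.2, 55.7 and 13.9 CPM in treated pups 6 to 10 and to between 7.34 and 19.4 CPM in untreated pups. Of 8 cerebellum markers 1, Barhl1, was higher, and Gabra6 lay below the count minimum. They summed to 276, 197, 138, 185 and 226 CPM in treated pups 6 to 10 and to between 155 and 259 CPM in untreated pups. These sums rest mainly on Zic1, Cbln1, Zic2 and Neurod1, none of which passed, with Zic1 averaging 82.9 CPM in treated and 88.6 CPM in untreated brains. Barhl1 averaged 2.45 and 0.330 CPM, Cbln3, which did not pass, 2.06 and 0.924 CPM, and Gabra6 0.458 and 0.102 CPM. Changes in such low genes hardly move the sums. The hindbrain markers summed to 3.43 and 2.76 CPM in treated libraries 6 and 7, to 0.185 to 0.479 CPM in the other treated libraries and to 0.172 to 0.277 CPM in untreated ones, and none of the 7 was at 0 throughout. Treated libraries 6 and 7 thus had the highest Hapln4, Hapln2, midbrain and hindbrain values. In treated libraries 8 to 10 Hapln4 and the midbrain sums differed in order, from which no cause is read. Treated library 9, with a midbrain sum of 55.7 CPM, had the lowest Hapln4 of the treated group, at 49.7 CPM. Treated library 10 had a midbrain sum of 13.9 CPM and 57.3 CPM of Hapln4. Hapln2 was at 2.35 CPM in treated library 9 and at 1.01 CPM in treated library 10. Leaving out the libraries highest in a gene lowers its fold change by construction, so the values without them show how far the calls rest on these libraries and nothing about midbrain content. Without treated libraries 6 and 7, Hapln4 was at 0.73 (adjusted p = 0.0543) and Hapln2 at 0.73 (adjusted p = 0.246). Bcan was at 0.42 (adjusted p = 0.00546) and Tnc at -0.72 (adjusted p = 0.00598) in the same fit. With treated library 9 also left out, so that 2 treated libraries remain, Hapln4 was at 0.77 (adjusted p = 0.121) and Hapln2 at 0.50 (adjusted p = 0.570). Bcan was then at 0.39 (adjusted p = 0.0343) and Tnc at -0.88 (adjusted p = 0.00348). The part of the midbrain, cerebellum, myelin and interneuron markers in these results was not tested.

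**Figure D3:**
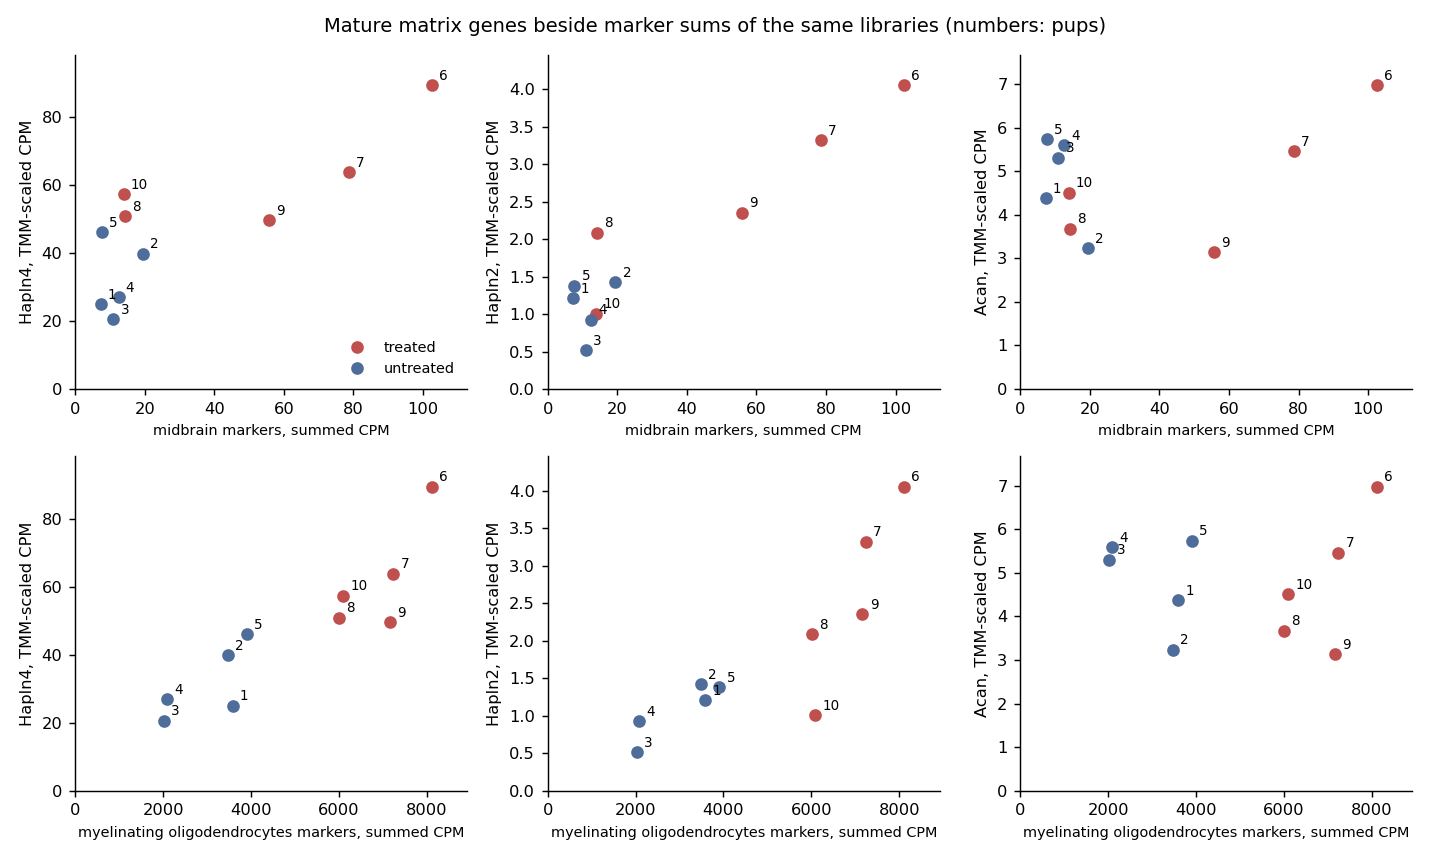
Hapln4, Hapln2 and Acan in TMM-scaled CPM (y axes) against the summed CPM of midbrain markers (upper row) and of markers of myelinating oligodendrocytes (lower row) in the same library, with treated pups in red, untreated pups in blue and pup numbers beside the points. Treated libraries 6 and 7, where the midbrain markers sum to 102 and 78.6 CPM, are the highest for Hapln4 and Hapln2, and all treated libraries have larger oligodendrocyte sums than untreated ones.

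Tnr and Acan, the remaining mature genes, did not pass. Tenascin-R, made by oligodendrocytes and some interneurons, cross-links lecticans in nets. Tnr (ENSMUSG00000015829, chromosome 1, 159523769 to 159931729) ranged from 288 to 304 CPM in treated and from 257 to 303 CPM in untreated libraries. Its difference was 0.06 on the log2 scale (SE 0.05, adjusted p = 0.544 by edgeR), with an approximate 95% interval of -0.05 to 0.16, and it was -0.0024 with library totals alone. Aggrecan is the lectican on which net assembly depends. Acan (ENSMUSG00000030607, chromosome 7, 79053483 to 79115099) was low, at 6.98, 5.46, 3.68, 3.14 and 4.51 CPM in treated pups 6 to 10, against 4.37, 3.23, 5.31, 5.59 and 5.74 CPM in untreated pups 1 to 5. The highest and the lowest of its 10 values were both treated libraries. The difference was -0.02 on the log2 scale (SE 0.22, adjusted p = 0.969 by edgeR), with an approximate 95% interval of -0.44 to 0.41, which leaves room for changes of either sign nearly as large as that of Bcan. Without treated libraries 6 and 7 the Acan value was -0.37 (adjusted p = 0.318).

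Set against gene length, as CPM per kilobase of merged exons, the order of levels shifted at the top. Bcan stood at 81.5 ± 6.07 CPM per kb in treated brains, above Ncan at 76.5 ± 2.40 CPM per kb, while in untreated brains Bcan stood at 59.0 ± 5.06 and Ncan at 81.6 ± 3.66 CPM per kb (SD, n = 5 each). In treated libraries the ranges of Bcan and Ncan overlapped, from 77.2 to 91.4 and from 73.3 to 79.2 CPM per kb. In untreated libraries they did not, from 53.0 to 65.8 and from 76.7 to 86.9 CPM per kb. Ptprz1 and Tnr followed in both groups, at 30.3 and 23.0 CPM per kb in treated and 35.7 and 22.1 CPM per kb in untreated brains. Hapln4 was the most abundant link protein gene in treated brains, at 15.9 ± 4.14 against 9.47 ± 0.521 CPM per kb for Hapln1, and in untreated brains it stood at 8.07 ± 2.74 against 9.83 ± 0.677 CPM per kb, with ranges that overlapped. Vcan and Tnc stood at 3.14 and 2.83 CPM per kb in treated and at 3.73 and 4.83 CPM per kb in untreated brains. Hapln2 and Acan were lowest, at 1.08 ± 0.495 and 0.636 ± 0.204 CPM per kb in treated and at 0.460 ± 0.159 and 0.649 ± 0.140 CPM per kb in untreated brains, and their ranges overlapped within each group.

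The make-up of each family is a further description, with no test, as these shares combine the genes already described. All are shares of RNA, named by the protein encoded, and protein was not measured. Brevican supplied 49.0% to 52.4% of the summed lectican level per kb in treated and 38.9% to 43.6% in untreated libraries. Neurocan supplied 45.4% to 48.6% in treated and 53.5% to 57.7% in untreated libraries. Versican supplied 1.63% to 2.31% in treated and 2.35% to 2.97% in untreated libraries, and aggrecan 0.254% to 0.536% and 0.284% to 0.560%. Tenascin-C made up 8.70% to 13.8% of the tenascin level per kb in treated and 15.0% to 19.8% in untreated libraries, so the ratio of Tnr to Tnc was 6.26 to 10.5 in treated and 4.05 to 5.66 in untreated libraries. Of the 3 link protein genes Hapln4 supplied 54.3% to 66.3% in treated and 36.0% to 53.7% in untreated libraries, the closest being treated library 8 and untreated library 5. The mean log2(CPM + 1) of the mature genes minus that of the juvenile genes was -0.54, -0.66, -1.01, -1.17 and -1.04 in treated pups 6 to 10, against -1.65, -1.62, -1.80, -1.67 and -1.32 in untreated pups 1 to 5. All treated values were above all untreated ones, and untreated library 5 was the nearest to them. Each gene counts alike in these means, although Hapln2 had only 13 to 136 counts a library. Tnr, Acan, Ncan, Vcan and Hapln1 did not pass on their own, so the difference is not a shift of every gene.

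**Figure D4:**
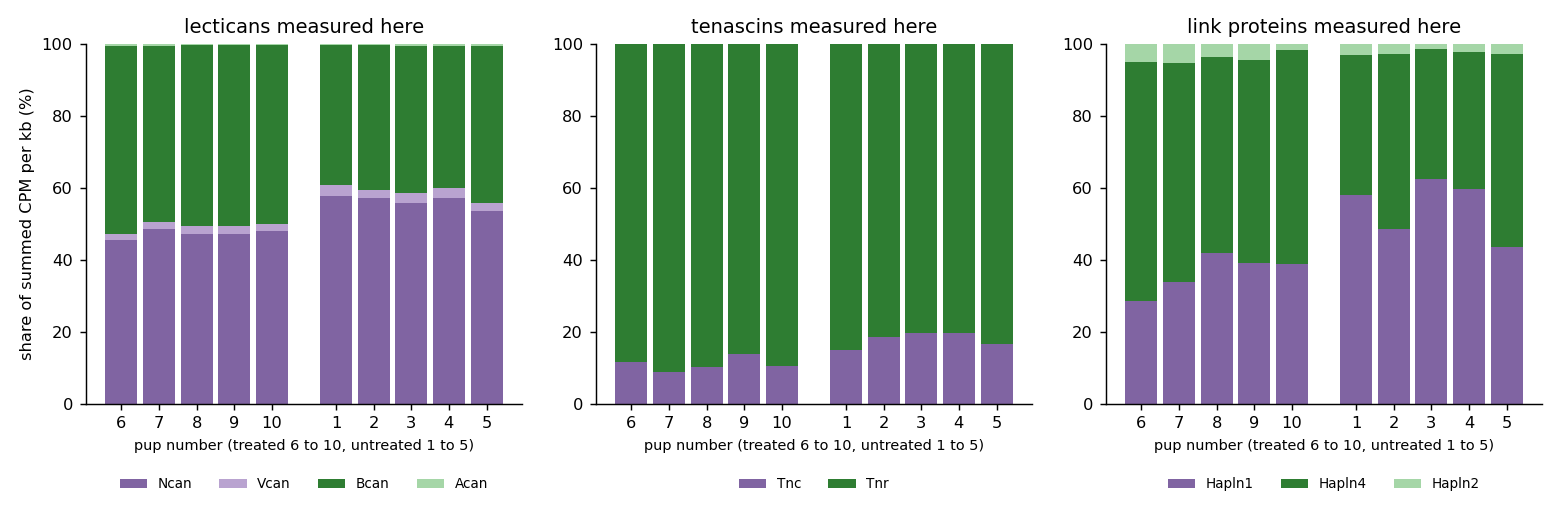
Share of each gene in the summed CPM per kb of its family (y axis, percent), 1 bar a library with treated pups left of untreated pups. Juvenile genes are purple and mature genes green: Bcan supplies 49.0% to 52.4% of the lectican level in treated and 38.9% to 43.6% in untreated libraries.

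Position in the genome was not part of the choice of genes. Each lectican gene has a link protein gene as a neighbour, with no other protein-coding gene between them. Bcan and Hapln2 lie 21520 bases apart on the same strand of chromosome 3, and both rose. Ncan and Hapln4 lie 2223 bases apart, tail to tail on chromosome 8, and of this pair Hapln4 rose and Ncan did not pass. Vcan and Hapln1 lie 43660 bases apart, tail to tail on chromosome 13, and neither passed. Acan ends 3 bases from the link protein gene Hapln3, also tail to tail, and Hapln3 was at 3.43 ± 0.550 CPM in treated and 3.87 ± 0.737 CPM in untreated brains (SD, n = 5 each). Exons of Tnc and Tnr overlap antisense transcripts over 2.26% and 3.44% of their length, and those transcripts had 8 counts and 1 count over all 10 libraries.

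For the genes that passed, the profiles most like theirs over the 10 libraries were found by the mean absolute difference of log2(CPM + 1) after centring each gene on its mean. Bcan was closest to Cers2, a ceramide synthase (0.0510), then to the Wnt receptor gene Fzd1 (0.0531) and the kinase gene Aatk (0.0552), where the median over all genes was 0.253. Hapln4 was closest to the vesicle protein gene Vamp1 (0.145), to S1pr5, a sphingosine phosphate receptor of oligodendrocytes (0.164), and to Nipal4 (0.175), with a median of 0.521. Hapln2 was closest to Syt2, a calcium sensor of fast synapses (0.139), to the growth factor receptor gene Ret (0.146) and again to Vamp1 (0.151), with a median of 0.452. Tnc was closest to Sncaip (0.133), to Tubb2b, a tubulin of young neurons (0.134), and to the potassium channel gene Kcnk10 (0.138), with a median of 0.390. Ptprz1 was closest to the corepressor gene Rcor3 (0.0387), to Cars2 (0.0463) and to Esco1 (0.0471), with a median of 0.174.

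Genes that make or join the matrix were followed next, beside the 10 genes. For the counts of each list below, the shares over all genes tested were 6.61% higher and 4.65% lower, 11.3% in all. Of 14 other matrix components 3 rose and 11 did not pass (median log2 fold change 0.12). Sparcl1, which encodes the astrocyte protein hevin, was 1.23-fold higher, at 1255 CPM in treated and 1023 CPM in untreated brains (adjusted p = 0.00285, edgeR). Its relative Sparc was 1.46-fold higher, at 672 and 461 CPM (adjusted p = 0.00569, edgeR). Cspg4, a proteoglycan of oligodendrocyte precursors, was 1.22-fold higher (adjusted p = 0.0256, edgeR), a call lost without treated library 9 (adjusted p = 0.0625) or untreated library 2, 3 or 4 (adjusted p = 0.0529, 0.0575 and 0.0578). Reln, the signal of Cajal-Retzius cells, had a log2 fold change of -0.29 (adjusted p = 0.0554, edgeR), and passed in 9 of 23 alternatives, among them DESeq2 (adjusted p = 0.0219), library totals alone (adjusted p = 0.0333) and leaving out untreated library 5 (adjusted p = 0.0144) or treated library 8 (adjusted p = 0.0315). Over all alternatives its adjusted p ran from 0.0144 to 0.391.

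Of 11 hyaluronan genes Has3 fell and 10 did not pass (median log2 fold change -0.16). Has3, a synthase of the hyaluronan backbone, averaged 5.49 ± 0.876 CPM in treated and 7.49 ± 0.867 CPM in untreated brains (SD, n = 5 each), with no overlap (log2 fold change -0.45, adjusted p = 0.0408, edgeR). Its call was lost without treated library 6, 8 or 10 (adjusted p = 0.0725, 0.0763 and 0.0560) or untreated library 1, 2, 3 or 4 (adjusted p = 0.0560, 0.0863, 0.0712 and 0.0884). The hyaluronan receptor gene Cd44 was at 12.6 ± 1.93 CPM and 17.1 ± 4.00 CPM (SD, n = 5 each), with adjusted p = 0.0804 in edgeR's test. It passed in DESeq2 (adjusted p = 0.0396) and without untreated library 5, alone (adjusted p = 0.0156) or with treated library 6 (adjusted p = 0.0247). Ugdh, which supplies a sugar precursor, and the synthase gene Has2 had log2 fold changes of -0.18 (SE 0.08) and -0.66 (SE 0.39), with adjusted p = 0.175 and 0.301 in edgeR's test.

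Of 21 chondroitin sulfate synthesis genes tested 2 were higher and 19 did not pass, with a median log2 fold change of -0.06. Chst13 was below the count minimum. Chpf2, which helps to lengthen the chain, was 1.20-fold higher, at 64.1 CPM in treated and 53.5 CPM in untreated brains with no overlap (adjusted p = 0.00441, edgeR). Chst12, a sulfotransferase of the chain, was 1.24-fold higher (adjusted p = 0.0263, edgeR), a call lost without treated library 9 or 10 (adjusted p = 0.0510 and 0.0600) or untreated library 1 or 3 (adjusted p = 0.0633 and 0.0504). Chst15, which adds a further sulfate, and the epimerase gene Dsel had log2 fold changes of -0.18 (SE 0.06, adjusted p = 0.0820, edgeR) and -0.28 (SE 0.10, adjusted p = 0.105, edgeR).

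Proteases and inhibitors went both ways, with 2 of 18 tested higher and 2 lower (median log2 fold change -0.08), and Mmp3 below the count minimum. Timp4, an inhibitor of metalloproteases, had a smaller adjusted p than any of the 10 matrix genes. It was at 29.7 to 35.6 CPM in treated and at 17.9 to 23.4 CPM in untreated libraries, higher in all treated libraries (log2 fold change 0.72, SE 0.09, adjusted p = 0.000453, edgeR), and it also passed without untreated pups 1 to 3 (adjusted p = 0.0265). Adamts4, a protease that cuts aggrecan and brevican and is known from oligodendrocytes, was 1.78-fold higher, at 29.4 to 43.4 CPM in treated and 14.3 to 25.4 CPM in untreated libraries (adjusted p = 0.00692, edgeR). The related protease gene Adamts8 was 1.72-fold lower, at 4.12 to 5.74 CPM in treated and 6.44 to 11.2 CPM in untreated libraries (adjusted p = 0.00756, edgeR). Ctss, a lysosomal protease of microglia, was 1.69-fold lower (adjusted p = 0.0459, edgeR). That call was lost on leaving out any of treated libraries 6 to 10 (adjusted p = 0.0662 to 0.0896) or untreated library 1, 3 or 4 (adjusted p = 0.106, 0.0753 and 0.120).

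Among 17 receptors and binding partners 2 rose, 4 fell and 11 did not pass (median log2 fold change 0.02). Nfasc, which encodes neurofascin of the node of Ranvier and of oligodendrocytes, was 1.44-fold higher, at 585 to 735 CPM in treated and 361 to 513 CPM in untreated libraries (adjusted p = 0.00441, edgeR). Sema3a, a guidance cue that nets retain, was 1.47-fold lower, at 13.9 to 19.5 CPM in treated and 21.4 to 27.8 CPM in untreated libraries (adjusted p = 0.00354, edgeR). Ncam1, an adhesion molecule bound by neurocan and phosphacan, was 1.20-fold lower, and Cntn1, the contactin bound by tenascin-R and phosphacan, was 1.15-fold lower (adjusted p = 0.00914 and 0.0160, edgeR). Nptx2, a pentraxin found in nets, was higher (log2 fold change 0.39, adjusted p = 0.0328, edgeR) and Egfr, the epidermal growth factor receptor, lower (-0.30, adjusted p = 0.0414, edgeR), both named after their values were seen. The Nptx2 call was lost without treated library 7, 9 or 10 (adjusted p = 0.0767, 0.0603 and 0.0661) or untreated library 1, 2, 3 or 4 (adjusted p = 0.0785, 0.0686, 0.0767 and 0.0853). The Egfr call was lost on leaving out any single library other than untreated library 2 (adjusted p = 0.0508 to 0.102). Treated library 6 had 638 CPM of Ncam1, against 559 to 573 CPM in the other treated libraries and 657 to 744 CPM in untreated ones. Of the 16 genes of these 5 lists that passed with all libraries, Timp4 also passed without untreated pups 1 to 3 and the other 15 did not. Without treated libraries 6, 7 and 9, Timp4, Sparcl1 and Sema3a passed and 13 did not, among them Adamts4 (0.55, adjusted p = 0.174, edgeR) and Nfasc (0.40, adjusted p = 0.0998, edgeR). Without treated libraries 6 and 7 alone, 9 of the 16 passed.

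**Figure D5:**
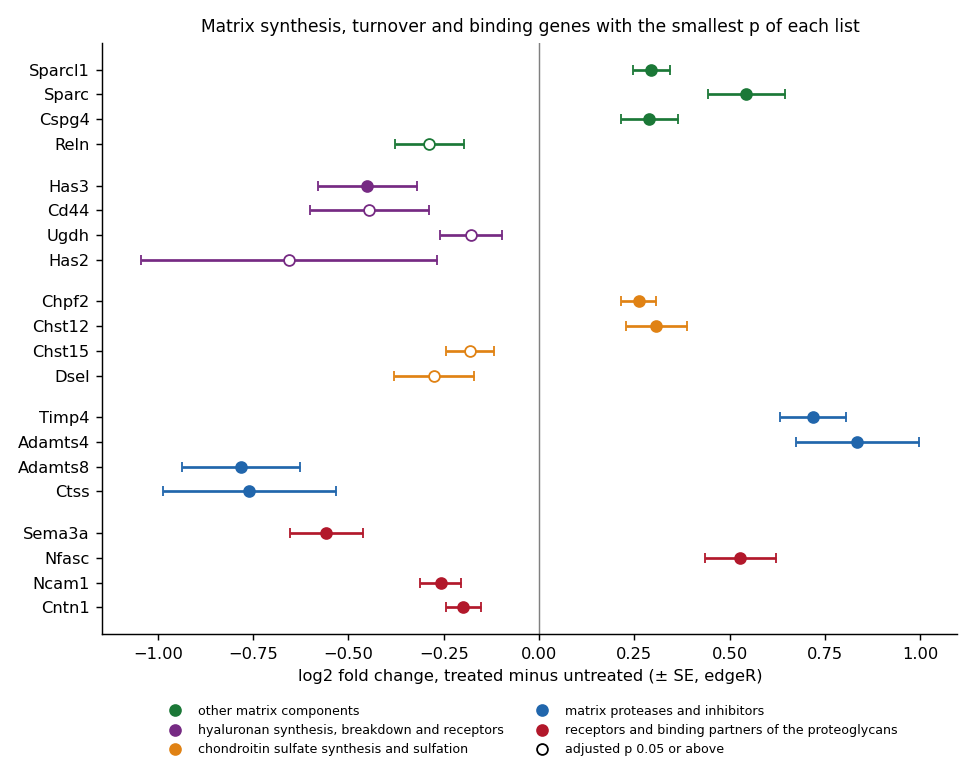
Log2 fold change, treated minus untreated, with its standard error (x axis, edgeR, n = 5 libraries a group) for the 4 genes with the smallest p of each list, coloured by list. Filled points passed an adjusted p of 0.05. Timp4, Adamts4, Nfasc and Sparc lie to the right of 0, and Adamts8, Ctss, Sema3a and Has3 to the left.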

How the data were processed

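Libraries from whole-brain RNA were made with a directional NEBNext kit, per the labels' protocols, and Partek and mm10 are named in the submitters' processing notes. The aligner, counting program and strand setting were not given in the sources used here. The table deposited by the authors holds estimated counts (expected counts) for 55471 Ensembl identifiers. Its name says normalized, but 86.8% to 87.6% of the values above 0 are whole and library totals run from 18656836 to 34270723, so the values were rounded and analysed as counts. Names, positions and exon lengths came from GENCODE M21 (GRCm38), where 55230 identifiers were found.

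Genes with 10 or more counts in at least 5 of 10 libraries were kept (17101), scaled by TMM (factors 0.953 to 1.04) and tested, treated against untreated, with edgeR 4.0.16 (quasi-likelihood, two-sided, no covariate, R 4.3.3), with Benjamini-Hochberg adjustment over all genes kept. Differences on the log2 scale are treated minus untreated, with an SE obtained as their size over the root of the F statistic. The labels do not give the litters, so p-values measure the spread between these pups. The test was also run on simulated counts with dispersions taken from these data. It found 62% of the genes changed 1.5-fold and 84% of those changed 2-fold. Of its calls, 5.81% were unchanged genes. Only 200 genes were changed in the simulation, whereas the data gave 1926 calls, so these shares need not hold for the data.

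The 10 genes and all lists were chosen with earlier results of these data known. Named pathway genes are the 4 of each list with the smallest p. Alternatives numbered 23: other scalings, filters, limma 3.58.1, DESeq2 1.42.0 and libraries left out, 3 of them chosen after seeing the data.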

Additional observations from a re-analysis of the deposited data

Results flagged for a closer look

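Among 64 groups of 5 libraries checked (32 genes in 2 groups), 4 held a library whose gap to the nearest other exceeded Dixon's 95% critical value, and chance flags about 1 in 20 groups. None of the 4 concerned the 10 matrix genes. Ncam1 was at 638 CPM in treated library 6, against 559 to 573 CPM in the other treated libraries. Has2 was at 1.20 CPM in untreated library 4, against 0.515 to 0.668 CPM in the other untreated libraries. Chst15 was at 43.8 CPM in untreated library 1, against 37.1 to 38.1 CPM in the others of its group. Nptx2 was at 47.8 CPM in untreated library 5, against 32.4 to 34.7 CPM in the others.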

How the results depend on the processing

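No paired analysis was possible because the groups share no replicate number. Of 23 alternatives, Tnc and Bcan kept their direction in all and lost their call only without untreated pups 1 to 3, and Hapln4 also lost it in both analyses without treated libraries 6 and 7. The library names of those 3 pups have a prefix that no treated pup shares, so 5 treated and 2 untreated libraries remain. The planned pseudocounts for normalized values were not run, as the values are counts. Causes of the changes below were not tested.

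Without untreated pups 1 to 3, 76 genes were higher and 23 lower, 0 of the 10 matrix genes passed in either direction (5 at an unadjusted p under 0.05, edgeR), and log2 fold changes were -0.75 for Tnc, 0.45 for Bcan, 1.16 for Hapln2, 0.77 for Hapln4 and -0.34 for Ptprz1. With library totals alone 1451 genes and 4 of the matrix genes were lower, Ncan (-0.15) and Vcan (-0.31) now passing, and Tnr changed sign to -0.0024. Vcan also passed in DESeq2 (-0.25). Hapln2 missed the threshold in limma-trend with prior counts of 1 and 4 (1.14 and 1.05) and with library weights (1.04), and the filter of 100 counts left it out. Of the alternatives chosen after seeing the data, leaving out untreated library 5 and treated library 6 gave 1 lower matrix gene, with Hapln2 at 1.09 and Ptprz1 at -0.24, neither past the threshold. Leaving out treated libraries 6 and 7 gave 649 higher and 467 lower genes, 1 higher and 1 lower matrix gene, and Hapln2 at 0.73, Hapln4 at 0.73 and Ptprz1 at -0.24. Leaving out treated library 9 as well gave 215 and 131 genes, again 1 and 1 matrix genes, and Hapln2 at 0.50, Hapln4 at 0.77 and Ptprz1 at -0.26.

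With each library left out in turn, 647 to 1357 genes were higher and 437 to 984 lower, 2 to 3 matrix genes were higher and 1 to 2 lower. Log2 fold changes were 1.00 to 1.45 for Hapln2, -0.28 to -0.19 for Ptprz1, -0.33 to -0.21 for Vcan and -0.22 to 0.093 for Acan, whose sign changed. The lowest counts all came from untreated libraries 1, 3 and 4: without them 712, 647 and 649 genes were higher and 513, 475 and 437 lower. Among the 10 matrix genes Hapln2 had the lowest counts, 13 to 136 a library.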
